A study of Mus musculus with 6 samples.

Results

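The genes described here encode the potassium channels of the mouse and their close relatives, the hyperpolarization-activated HCN channels. They were taken by name: every gene of the count table whose symbol is Kcn followed by a subfamily letter and a number, or Hcn followed by a number, without antisense and opposite-strand names. This gave 97 of the 54532 genes in the table, of which 81 encode subunits that form a pore or join one, and 16 encode auxiliary subunits. RNA from sciatic nerves of mice at postnatal day 3 was sequenced, with 1 library for each of 3 control and 3 Dok6 mutant mice. The labels give the control genotype as WT and name the same tissue, the same cell type (nerve cell) and the same treatment word (neurodevelopment) for all 6 libraries. The study's methods describe mutants on a C57BL/6 background in which exon 3 of Dok6 lay between loxP sites and was removed by EIIA-cre, a Cre that acts from the early fertilized egg. Dok6 encodes an adaptor protein of receptor tyrosine kinases, and a deletion made so early is not confined to the nerve. The methods say that the sexes were not told apart outside the behavioral tests, and the study calls its controls littermates without naming which of these mutants and controls came from the same litter.

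Potassium channels let potassium leave the cell and so bring the membrane back towards rest. Voltage-gated Kv channels open on depolarization and shape the action potential, calcium-activated channels couple firing to calcium entry, inward rectifiers and tandem-pore (K2P) leak channels set the resting potential, and HCN channels carry a depolarizing current that opens on hyperpolarization. Several Kv subunits form no channel of their own and are called electrically silent, because they act only after joining other Kv subunits, and auxiliary subunits such as KChIP, Kv beta and BK beta proteins change how the pore subunits are trafficked or gated. In peripheral nerve, Kv1 channels lie beside the nodes of Ranvier and Kv7 channels lie within them, while glial inward rectifiers take up potassium released by axons.

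The pore subunits line the pore with a selectivity filter, a short conserved stretch whose letters were read here in the coding sequence. The patterns, each of 5 codons, were sought in frame on the coding strand, in the longest coding sequence of each gene in GENCODE M21. The first is a codon that begins AC, then any codon, then codons that begin GG, TA and GG. The second has TT in place of TA, and the third has TG in place of AC. No pattern can overlap another at the same codons. At least 1 of them stood in 70 of the 81 pore genes and in 0 of the 16 auxiliary genes. The share of all 22101 protein-coding genes with at least 1 of the patterns was 1.44%. The first pattern was in 57 pore genes (0.529% of coding genes), the second in 18 (0.787%) and the third, that of the HCN channels, in 4 (0.186%). The 18 include Hcn4, whose match to the second pattern, at coding bases 2713 to 2727, lies far from its HCN pattern at 1432 to 1446. The 11 pore genes without a match were 7 of the Kcnh genes, Kcnn1, Kcnn2, Kcnn3 and Kcnj14, which says only that these letters are not in that sequence. A match is a description of the letters only. The sequences of 5 genes whose values are given below are shown to let the filters be compared. Each runs 5′ to 3′ over 30 bases of spliced coding sequence, and the 15 bases of the pattern are in capitals. Kcnk18 and Kcnk9 have 2 each, because a K2P subunit carries a pair of pore domains.
Kcnk18, first filter: ttcagcACAGTGGGTTATGGCcacatgtac
Kcnk18, second filter: ctgaccACCATCGGGTTTGGGgacatcgtg
Kcnk9, first filter: atcacaACTATCGGATATGGAcatgctgca
Kcnk9, second filter: ttgactACTATAGGGTTCGGCgattttgtg
Kcnd1: atgaccACACTTGGGTATGGAgatatggta
Kcnd2: atgacaACACTGGGGTATGGCgacatggta
Kcnj8: caagtgACCATTGGGTTTGGAgggagaatg
In GRCm38, the capitals of Kcnj8 are chr6:142566448-142566462 (minus strand), the second of Kcnk18 chr19:59235427-59235441 (plus strand) and the second of Kcnk9 chr15:72512719-72512733 (minus strand). The capitals of Kcnd1, Kcnd2 and the first filters of Kcnk18 and Kcnk9 are each split by an intron.

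The 6 libraries held between 17699904 and 18678170 counts, and the members took between 0.343% and 0.371% of the counts of each. A level of 3 counts, taken as the smallest detectable, was between 0.155 and 0.172 CPM (counts per 1000000 counts of the library, scaled by edgeR's TMM method), and this floor covers counting error only. Dok6, the targeted gene, was at 17.8, 11.9 and 17.5 CPM in control mice and 7.25, 5.77 and 7.14 in mutant mice, without overlap, a log2 fold change of -1.23 (SE, the standard error, 0.20, adjusted p = 0.0118 by the quasi-likelihood test of edgeR after Benjamini-Hochberg adjustment). These counts cover the whole gene, and counts of the deleted exon alone were not analysed here. Each fold change below is mutant over control on the log2 scale and each adjusted p comes from that test, adjusted over all genes tested. The p-values set the difference between genotypes against the spread among mice of the same genotype, as labelled. An exact permutation test of 3 against 3 values cannot give a two-sided p below 0.1. Many markers of the central nervous system were abundant in libraries labelled sciatic nerve. Gfap (astrocytes and some Schwann cells), Slc17a6 (excitatory neurons) and Slc6a5 (glycinergic neurons) were between 189 and 554 CPM, 242 and 321 CPM and 176 and 263 CPM in all 6 libraries. The 18 Schwann cell markers summed to 336 to 1985 CPM in control libraries and 693 to 7346 CPM in mutant libraries (8 higher, 0 lower), and the 20 central nervous system markers to 4042 to 4931 and 3485 to 5411 CPM (1 higher, 2 lower). Among these 20, the higher gene was Slc17a7 (0.401 to 0.974 CPM in control mice and 3.16 to 9.48 in mutant mice). Chat and Mog were low, at 2.92 to 7.52 and 4.30 to 12.5 CPM over the 6 libraries. Connective tissue markers summed to 381 to 1307 and 2225 to 3291 CPM (5 of 10 higher, 0 lower), and macrophage markers to 102 to 143 and 152 to 171 CPM (0 of 10 called). In such bulk samples, fewer cells of a type and less RNA per cell cannot be told apart.

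Of the 97 genes, all had at least 1 count, 83 passed the filter on low counts and were tested, and 14 were not. At an adjusted p under 0.05, 11 of the 83 were higher in the mutants and 4 were lower, 13.3% and 4.82%, beside 8.62% and 6.01% of all 17099 genes tested (14.6% in either direction, and 18.1% of these channel genes). The genes higher in the mutants included Kcnk18, Kcnmb1, Kcng1, Kcnn4, Kcnj12, Kcnd1, Kcnj8, Kcns3, Kcnv1 and Kcnn1, and those lower were Kcnip1, Hcn2, Kcnd2 and Kcnk9. With a log2 fold change above 2 also asked for, 1 gene was higher, Kcnk18 (1.20% of the tested members, background 1.08%), and 0 were below -2 (background 0.111%). Above 1, 4 genes were higher, 4.82% of the tested members against 3.58% of all genes, and 0 were lower, against 0.433%. The median log2 fold change of the 83 genes was 0.09, and that of all genes tested was 0.01. All 3 mutant mice lay above all 3 control mice for 21 of the 83 genes and below them for 7, 25.3% and 8.43% beside 19.6% and 18.7% of all genes tested (38.2% in either direction, and 33.7% of the channel genes). At an unadjusted p under 0.05, 26.5% of the channel genes were higher and 9.64% lower, beside 18% and 15.5% of all genes tested. The counts depended on which mice entered, among the channel genes and in the whole table. Without control mouse 2, 0 members passed edgeR's test, and 56 genes were higher and 12 lower in the whole table (0.318% and 0.0682%). In that fit 14 members were higher and 7 lower at an unadjusted p under 0.05 (16.7% and 8.33%, beside 13.1% and 10.1% of all genes). Without control mouse 1 there were 2 higher and 3 lower members, beside 5.56% and 3.58% of all genes, and without control mouse 3 there were 5 and 1, beside 5.73% and 3.53%. Without mutant mouse 1 there were 7 and 1, beside 3.99% and 1.11% of all genes, without mutant mouse 2 there were 3 and 0, beside 3.16% and 1%, and without mutant mouse 3 there were 8 and 5, beside 9.59% and 7.08%.

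**Figure D1:**
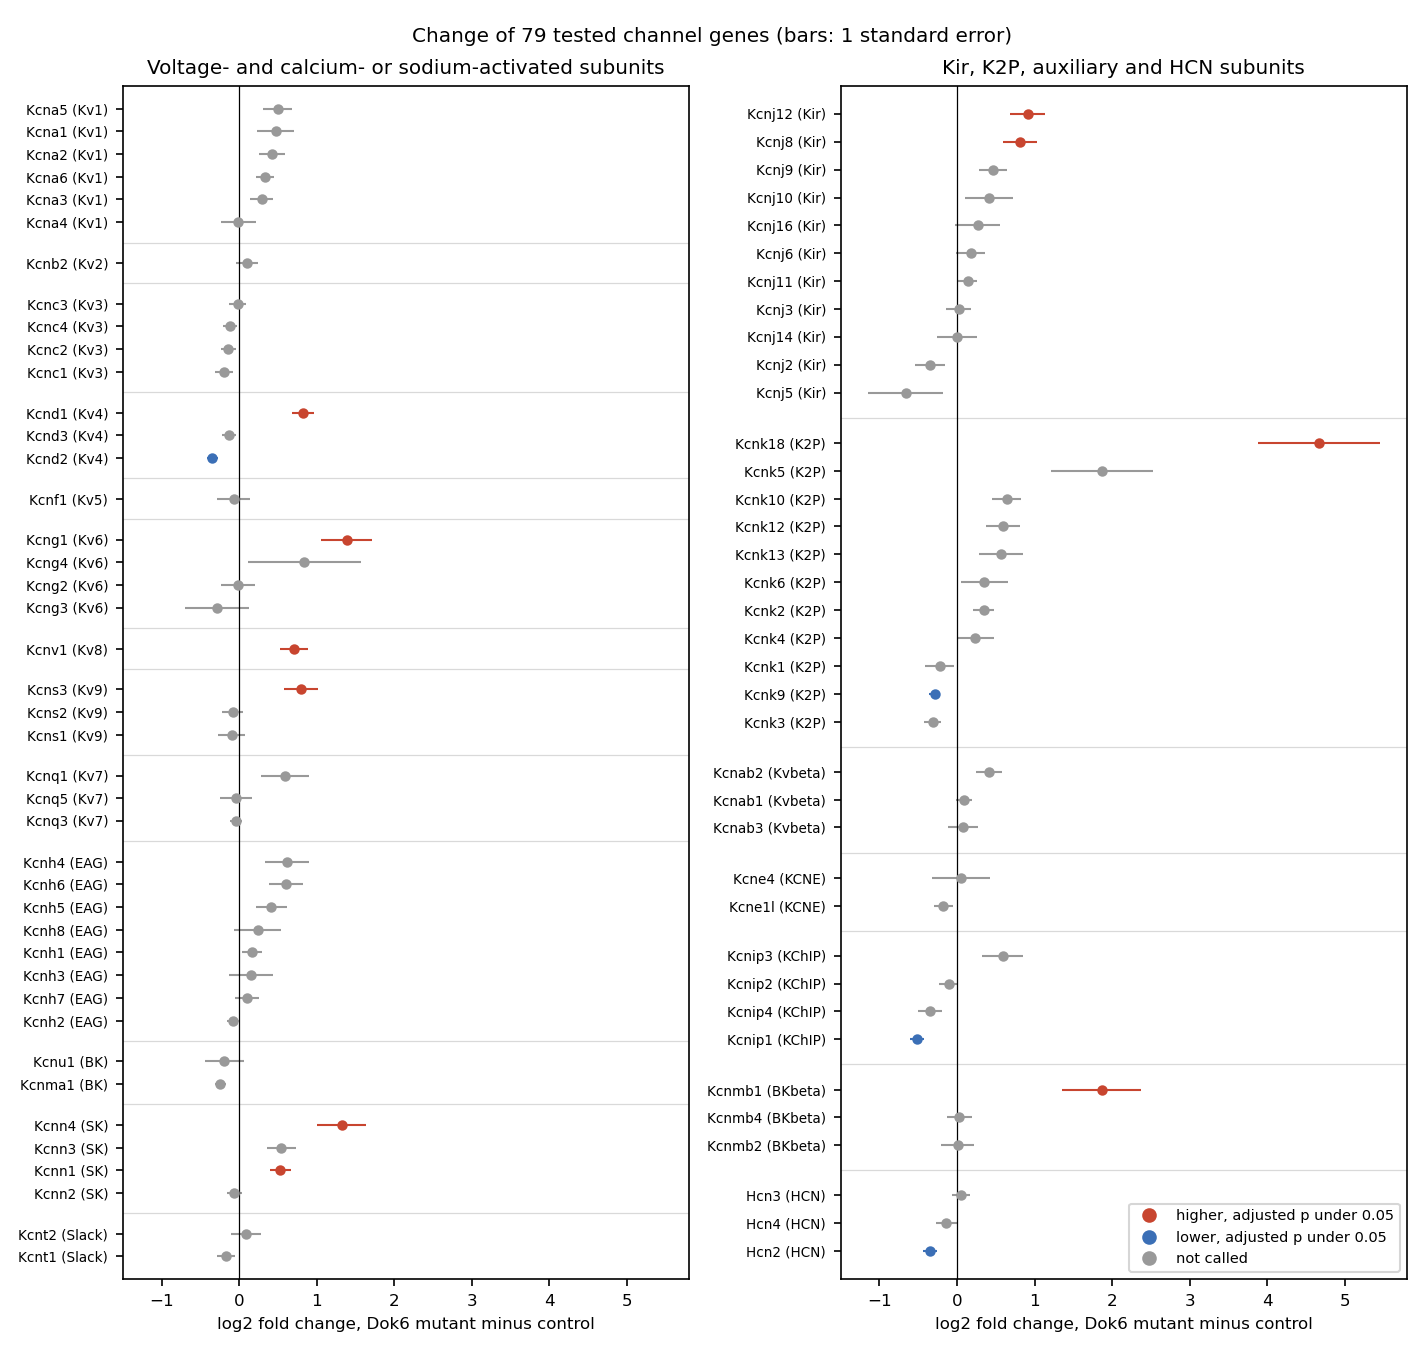
Log2 fold change, Dok6 mutant over control, of 79 of the 83 tested channel genes (horizontal axis, log2 scale, with 1 standard error as a bar), grouped by subfamily, with genes that rose in red, those that fell in blue and those not called in grey. Kcnk18 stands apart at 4.66 and the others lie between -0.66 and 1.87.

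The genes that rose and those that fell had different amounts of reads behind them. Mean levels in CPM, which are not corrected for gene length, over the 6 libraries ran from 0.585 to 22.5 CPM for the 11 genes that rose, with a median of 6.53, and from 121 to 253 CPM for the 4 that fell, with a median of 171. The genes that did not pass spanned 0.535 to 232 CPM. The median standard error was 0.22 on the log2 scale among the genes that rose and 0.08 among those that fell. The smallest absolute log2 fold change that passed was 0.53 for the genes that rose and 0.29 for those that fell.

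**Figure D2:**
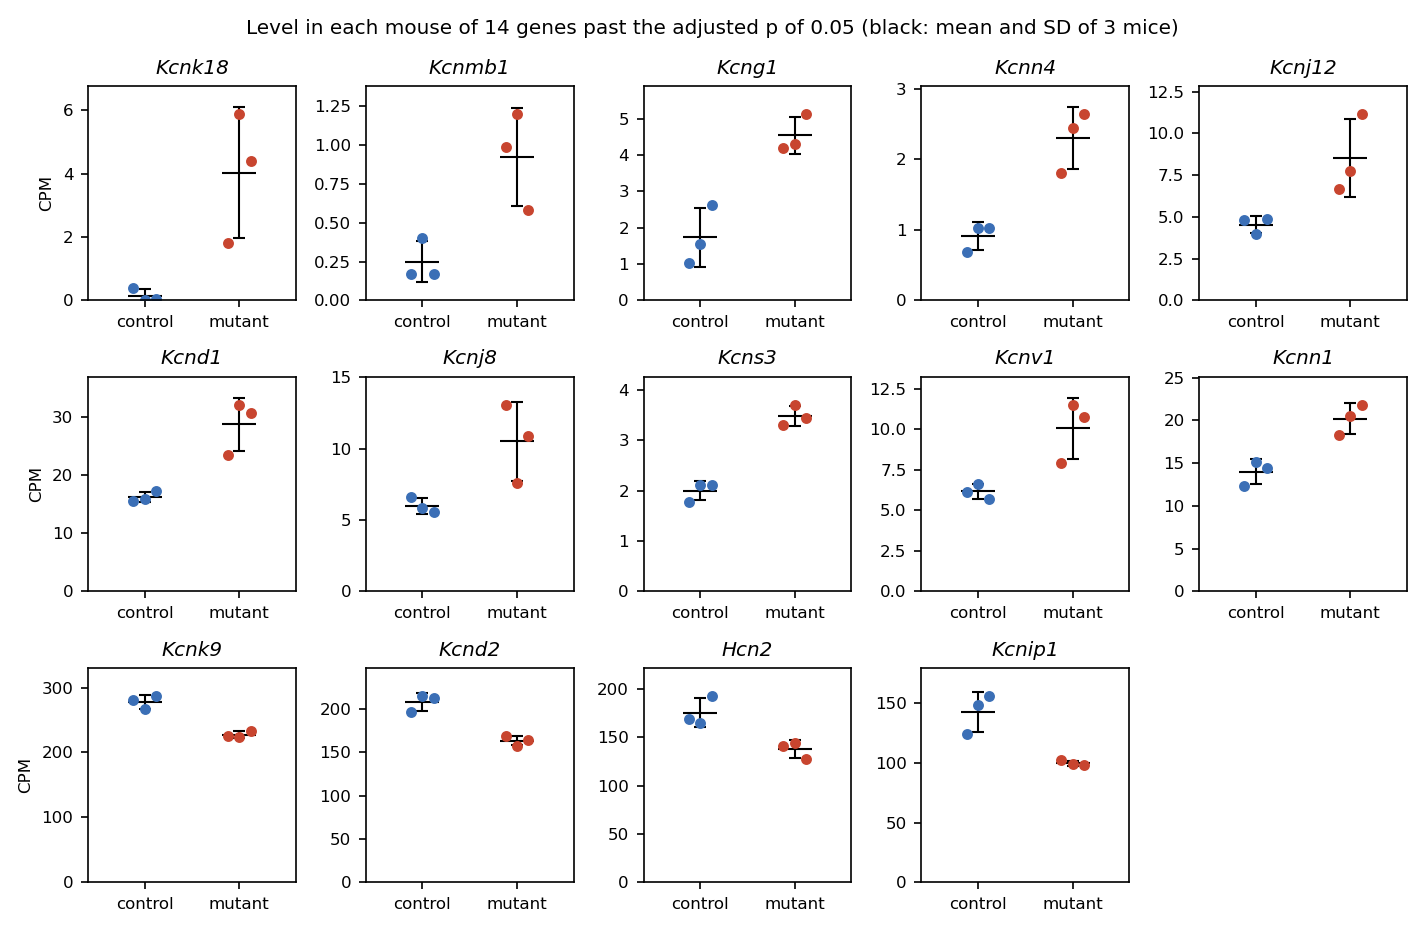
CPM in each mouse of 14 of the 15 genes that passed an adjusted p of 0.05 (vertical axis, CPM from 0, 1 panel a gene), with control mice in blue, Dok6 mutant mice in red and the mean and SD of 3 mice in black. No mutant mouse overlaps a control mouse in any of the 14 panels, and the 4 genes that fell, Kcnk9, Kcnd2, Hcn2 and Kcnip1, stand at 98.2 CPM or more in every mouse.

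Among the K2P leak channels, 1 of 11 tested genes rose and 1 fell in edgeR's test, beside 8.62% and 6.01% of all genes tested, while DESeq2 called 4 of the 11 and limma voom 3. At an unadjusted p under 0.05, 5 were higher and 2 lower, beside 18% and 15.5% of all genes. The median log2 fold change of the 11 was 0.35. Kcnk18 (chr19:59219214-59237374) encodes TRESK, a background channel of sensory neurons that limits their excitability. It had 7, 0 and 1 counts in the control libraries, where control mice 2 and 3 are below the floor, and 1.81, 5.88 and 4.39 CPM in the mutant libraries. No control mouse reached any mutant mouse. The log2 fold change was 4.66 (SE 0.79, adjusted p = 0.0131), about 25.3-fold, and its size is uncertain because so few counts stand behind the control value. Between 4.09 and 6.83 was obtained on leaving out 1 mouse at a time, and of these 6 fits the one without control mouse 2 lost the call (adjusted p = 0.0681).

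Kcnk9 (chr15:72501089-72546340), which encodes TASK-3, an acid-sensitive leak channel, was the most abundant K2P gene per length. It was at 281, 266 and 287 CPM in control mice and 226, 224 and 233 in mutant mice. Every mutant mouse was lower, by 18.2% in the fit, a log2 fold change of -0.29 (SE 0.07, adjusted p = 0.0350). The call was lost in 5 of the 6 fits that left out a mouse, with an adjusted p of up to 0.117, and the log2 fold change stayed between -0.32 and -0.26. Kcnk2 and Kcnk4, which encode the mechanically and thermally gated channels TREK-1 and TRAAK, were not called, at log2 fold changes of 0.34 (SE 0.14, adjusted p = 0.120) and 0.23 (SE 0.24, adjusted p = 0.522). The levels of Kcnk2 were 28.3 to 39.4 CPM in control mice and 38.7 to 43.4 in mutant mice, which overlap. Without control mouse 3, Kcnk2 passed (log2 fold change 0.51, adjusted p = 0.0333), and over the other 5 such fits its adjusted p ran up to 0.329. The log2 fold change of Kcnk4 ran from 0.05 to 0.53 over the 6 fits, none of which called it. The genes that DESeq2 added, named after their values were seen, were Kcnk10 and Kcnk5. Kcnk10 was at 15.6, 13.6 and 23.1 CPM in control mice and 26.2, 26.8 and 28.6 in mutant mice, without overlap, and its log2 fold change of 0.64 had an adjusted p of 0.0520 in edgeR's test, 0.0116 in DESeq2 and 0.0395 in limma voom. Kcnk5 was at 0.859, 0.343 and 0.457 CPM in control mice and 0.518, 3.38 and 2.22 in mutant mice, which overlap, with an adjusted p of 0.0880 in edgeR's test, 0.0378 in DESeq2 and 0.215 in limma voom.

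Some but not all of the listed markers of sensory neurons moved with Kcnk18. Of a list of 25 sensory neuron genes, 24 are in the table, 23 were tested, 13 were higher in the mutants and 0 were lower. Its summed level was 1482 to 1750 CPM in the control libraries and 1872 to 2755 CPM in the mutant libraries. Ntrk2, which was not called, held 489 to 613 CPM of this sum in every library. The tested genes that did not pass ran from Tac1 at a log2 fold change of -0.24 to Isl1 at 1.09. Among them were Ntrk2 (0.008), Gfra2 (-0.002) and Tlx3 (-0.03). The sodium channel gene Scn10a was at 3.09, 2.92 and 1.20 CPM in the control libraries and 45.9, 167 and 133 CPM in the mutant libraries, and Avil at 6.25, 5.21 and 4.17 and at 27.9, 94.4 and 89.9. Among the 3 mutant libraries, Kcnk18, Scn10a and Avil were lowest in mouse 1 and highest in mouse 2, whereas P2rx3 and Trpv1, also of the list, were lowest in mouse 1 and highest in mouse 3. All 3 control libraries lay below them for each of these genes. Mrgprd and Runx3 were at 0 counts in 1 control library each, and no listed gene was at 0 in all 6. The part of these cells in the Kcnk18 result was not tested.

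**Figure D3:**
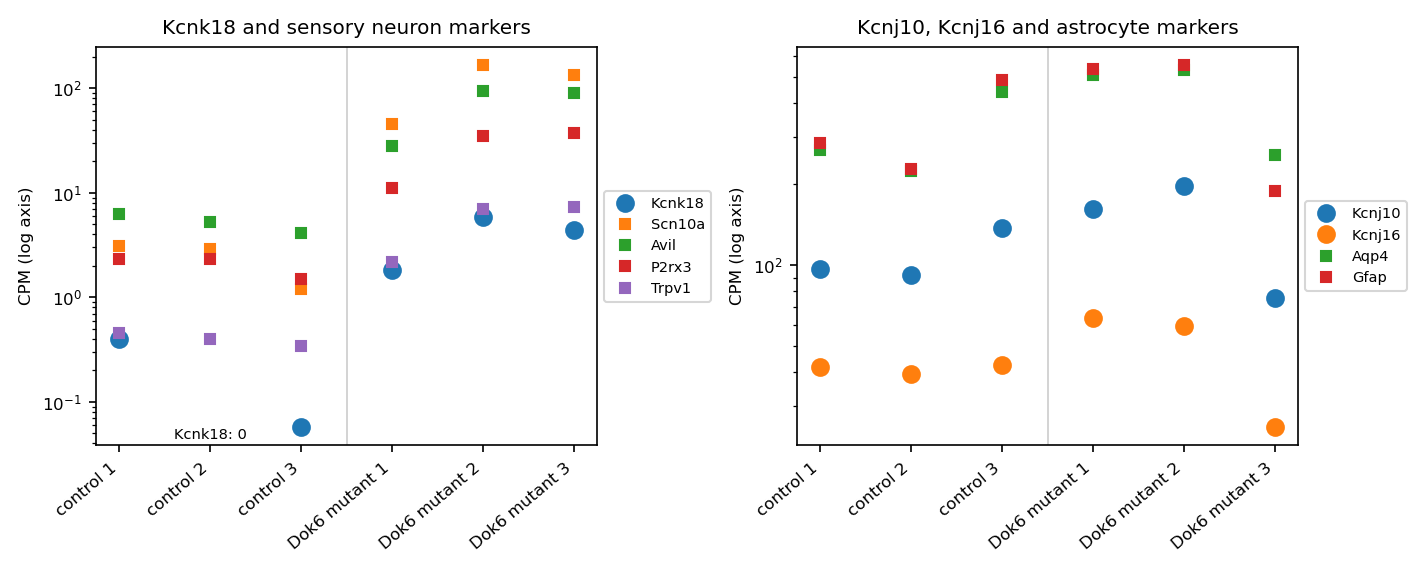
CPM in each of the 6 mice on a log axis (vertical axis) of Kcnk18 with 4 sensory neuron genes (left) and of Kcnj10 and Kcnj16 with 2 astrocyte genes (right); a grey line parts control from mutant mice, and Kcnk18 is 0 in control mouse 2 and is not plotted there. Kcnk18 and the 4 sensory genes drawn are higher in all 3 mutant mice, whereas Kcnj10 and Kcnj16 are lowest in mutant mouse 3, where Gfap is also lowest.

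Kv4 channels carry the fast, transient A-type current, and work in complexes with KChIP proteins and with the dipeptidyl-peptidase-like proteins Dpp6 and Dpp10. Kcnd2 (chr6:21215503-21729805), the most abundant Kv4 gene per length, was at 196, 215 and 213 CPM in control mice and 168, 158 and 165 in mutant mice. All 3 mutant mice were lower. It fell by 0.35 on the log2 scale (SE 0.07, adjusted p = 0.0227), or 21.3%. Kcnip1 (chr11:33629339-33993152), which encodes the auxiliary KChIP1, was at 124, 148 and 156 CPM in control mice and 102, 98.5 and 98.2 in mutant mice. It fell by 0.52 (SE 0.10, adjusted p = 0.0158), the largest decrease in the set that passed the test. Kcnip2, which encodes another KChIP, was not called, at a log2 fold change of -0.11 (SE 0.12, adjusted p = 0.567). Kcnd1 (chrX:7822289-7838280), another Kv4 gene, went the other way. It was at 15.6, 15.9 and 17.2 CPM in control mice and 23.5, 32.0 and 30.6 in mutant mice, a rise of 0.82 (SE 0.14, adjusted p = 0.0134). Its call was lost only without control mouse 2 (adjusted p = 0.0764). Without a given mouse, Kcnip1 lost its call in 2 of the 6 fits (adjusted p of up to 0.0844, without control mouse 2 or mutant mouse 2) and Kcnd2 in 4 (up to 0.105).

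Of the partners of Kv4 channels, Dpp10 fell with Kcnd2 and Kcnip1. Dpp10 was at 120, 144 and 153 CPM in control mice and 94.2, 91.7 and 103 in mutant mice, a log2 fold change of -0.53 (adjusted p = 0.0183), and Dpp6, at a log2 fold change of -0.07 (adjusted p = 0.556), was not called. In all, the partner list held 28 genes of channel-associated proteins, of which 27 were tested, 1 was higher, 2 were lower and the median log2 fold change was -0.04. Cntnap2, which anchors Kv1 channels beside the node, was at 204, 219 and 236 CPM in control mice and 156, 153 and 185 in mutant mice (log2 fold change -0.42, adjusted p = 0.0282). The higher gene was Lgi4, a secreted protein of Schwann cells, whose log2 fold change was 1.38 (adjusted p = 0.0399). Fxyd3 overlaps an exon of Lgi4 on the opposite strand, so that its count is uncertain. In the central nervous system marker list, Pax2 and Slc32a1 were also lower in mutant mice. Pax2 was at 128, 125 and 110 CPM in control mice and 73.4, 64.7 and 98.0 in mutant mice, and Slc32a1 at 159, 177 and 181 CPM and at 144, 125 and 147 CPM. The part of inhibitory interneurons, which these markers label, in the falls of Kcnip1, Kcnd2, Kcnk9 and Hcn2 was not tested.

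HCN channels carry the pacemaker current, which sensory neurons use to fire repeatedly. Hcn2 (chr10:79716634-79736108) was at 169, 165 and 193 CPM in control mice and 141, 145 and 128 in mutant mice. No mutant mouse reached a control mouse, and Hcn2 fell by 0.35 (SE 0.09, adjusted p = 0.0358), or 21.4%. The call was lost in all 6 fits that left out a mouse, with adjusted p values between 0.0609 and 0.0960. Hcn4 and Hcn3 were not called. Hcn4 gave a log2 fold change of -0.14 (SE 0.13, adjusted p = 0.501) and Hcn3 one of 0.05 (SE 0.11, adjusted p = 0.774). As levels per length, in CPM per kb of the gene length the authors give, the 4 HCN genes summed to 88.8, 86.4 and 97.3 in control mice and 76.7, 76.8 and 80.7 in mutant mice.

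Kv1 channels sit beside the nodes. Of 6 tested Kv1 genes, 0 passed in edgeR's test, in DESeq2 and in limma voom, and 3 were higher at an unadjusted p under 0.05, a cut that 18% of all genes tested passed as higher. Kcna1 and Kcna2, the main subunits of the axonal Kv1 channels, had log2 fold changes of 0.47 (SE 0.24, adjusted p = 0.209) and 0.42 (SE 0.17, adjusted p = 0.112). Without mutant mouse 2 these values were 0.17 and 0.19. Kcna2 passed without the filter (adjusted p = 0.0463) and without mutant mouse 3 (0.0437). Kcna2 was at 80.4, 75.1 and 86.8 CPM in control mice and 96.9, 141 and 87.6 in mutant mice, so the lowest mutant mouse exceeded the highest control mouse by little. Kcnab2, which encodes the Kv beta subunit of these channels, gave 0.41 (SE 0.16, adjusted p = 0.115) with levels of 86.9 to 116 CPM and 103 to 156 CPM that overlap. It passed without the filter (adjusted p = 0.0490), and its log2 fold change was 0.26 without mutant mouse 2. Summed over the Kv1 genes, levels per length were 30.4 to 33.0 CPM per kb in control mice and 37.0 to 45.8 in mutant mice, without overlap. Kcnq3, a subunit of nodal Kv7 channels, gave a fitted log2 fold change of -0.04 (SE 0.08, adjusted p = 0.754), and its levels overlapped between genotypes. This value is that of Kcnq3 alone and does not describe the Kv7 subfamily.

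Kv2, Kv3 and ether-a-go-go channels held 0 calls in edgeR's test, in DESeq2 and in limma voom. All 4 Kv3 genes, which serve fast firing, had negative log2 fold changes with a median of -0.13, among them Kcnc1 at -0.19 (SE 0.12, adjusted p = 0.275). Of the 8 genes of the ether-a-go-go family, 7 had positive log2 fold changes, beside 51.4% of all genes tested, and 1 was higher at an unadjusted p under 0.05, beside 18%. Among Kv2 and Kv3 there was none at that cut in either direction. Kcnh6, chosen after its values were seen, passed without mutant mouse 1 (adjusted p = 0.0387) and Kcnc1 without mutant mouse 3 (log2 fold change -0.32, adjusted p = 0.0465). All 6 Kv2 and Kv3 genes overlapped between genotypes.

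Of the silent subunits, 3 of 9 tested genes rose and 0 fell in edgeR's test, at low levels, beside 8.62% and 6.01% of all genes tested. DESeq2 called 2 of the 9 and limma voom 3. Kcng1 (chr2:168260117-168281736) modifies Kv2 channels and was at 1.03, 1.55 and 2.63 CPM in control mice and 4.20, 4.30 and 5.13 in mutant mice. The control values spread over more than the mutant ones. The log2 fold change was 1.39 (SE 0.33, adjusted p = 0.0301). Kcns3 (chr12:11090202-11151056), another partner of Kv2, was at 1.78, 2.12 and 2.11 CPM in control mice and 3.32, 3.70 and 3.44 in mutant mice. Its log2 fold change was 0.80 (SE 0.22, adjusted p = 0.0458), the closest of the 15 genes to the threshold. Kcnv1 (chr15:45106284-45114920) was at 6.13, 6.64 and 5.71 CPM in control mice and 7.92, 11.5 and 10.7 in mutant mice, a log2 fold change of 0.71 (SE 0.18, adjusted p = 0.0384). No genotype overlapped the other in any of the 3 genes. In the fits without a mouse, Kcng1 and Kcnv1 lost their calls in 5 of 6 and Kcns3 in all 6, with adjusted p values of up to 0.123, 0.125 and 0.135. Kcns3 was also not called by DESeq2 (adjusted p = 0.0686) or without the filter on low counts (0.0818). Kcns1, a silent subunit linked to pain, gave a log2 fold change of -0.09 (SE 0.17).

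Calcium- or sodium-activated channels held 2 genes that rose and 0 that fell among 8 tested in edgeR's test, beside 8.62% and 6.01% of all genes tested, while DESeq2 called 4 and limma voom 2. At an unadjusted p under 0.05, 3 were higher and 1 lower, beside 18% and 15.5% of all genes. Kcnn4 (chr7:24370263-24386690), the intermediate-conductance channel of blood and endothelial cells, was at 0.688, 1.03 and 1.03 CPM in control mice and 1.81, 2.45 and 2.65 in mutant mice. Its log2 fold change was 1.32 (SE 0.32, adjusted p = 0.0294). Kcnn1 (chr8:70842049-70863258), a small-conductance channel of neurons, was at 12.4, 15.2 and 14.5 CPM in control mice and 18.3, 20.5 and 21.8 in mutant mice, a log2 fold change of 0.53 (SE 0.14, adjusted p = 0.0357). A gene on the opposite strand, A230052G05Rik, overlaps an exon of Kcnn1, so its count is uncertain. Without a mouse, the Kcnn4 call was lost in 5 of the 6 fits (adjusted p of up to 0.102) and the Kcnn1 call in all 6 (up to 0.101). Kcnma1, the pore of the large-conductance BK channel, was at 155, 149 and 157 CPM in control mice and 127, 125 and 139 in mutant mice. The genotypes did not overlap, yet the log2 fold change of -0.24 did not pass edgeR's test (SE 0.08, adjusted p = 0.0614). Kcnma1 passed in DESeq2 (adjusted p = 0.0499) and without mutant mouse 3 (0.0346), and over the other alternatives its adjusted p ran up to 0.193. DESeq2 also called Kcnn3, a small-conductance channel gene named after its values were seen (log2 fold change 0.54, adjusted p = 0.0310), which in edgeR's test passed without the filter (0.0281) and without mutant mouse 3 (0.0336) but not as reported here (0.0783).

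Kcnmb1 (chr11:33963013-33973641) encodes the BK beta subunit of smooth muscle and was the second largest rise among the genes that passed. It lies within the span of Kcnip1 on the opposite strand, with no exon of either overlapping an exon of the other, and strand use in counting is not given in the sources used here. Kcnmb1 was at 0.172, 0.401 and 0.171 CPM in control mice, at or near the floor, and 0.984, 1.20 and 0.582 in mutant mice. The log2 fold change was 1.86 (SE 0.51, adjusted p = 0.0438), and the call was lost in 5 of the 6 fits without a mouse (adjusted p of up to 0.138), by DESeq2 (0.0678) and by limma voom (0.0540).

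Inward rectifiers held 2 genes that rose and 0 that fell among 11 tested in edgeR's test, beside 8.62% and 6.01% of all genes tested. DESeq2 called 2 of the 11 and limma voom 1. Kcnj12 (chr11:61022564-61071131), a strong inward rectifier, was at 4.81, 3.95 and 4.85 CPM in control mice and 6.68, 7.73 and 11.2 in mutant mice, a log2 fold change of 0.91 (SE 0.23, adjusted p = 0.0342). Kcnj8 (chr6:142564837-142571614), the pore of the vascular ATP-sensitive channel, was at 6.59, 5.84 and 5.54 CPM in control mice and 13.1, 7.57 and 10.9 in mutant mice, a log2 fold change of 0.81 (SE 0.22, adjusted p = 0.0410). The genotypes did not overlap for either gene. Each call was lost in 5 of the 6 fits without a mouse, with adjusted p values of up to 0.136 and 0.141, and Kcnj8 was not called by limma voom (0.0568). Kcnj11, the other pore of this kind, gave 0.14 (SE 0.12, adjusted p = 0.450). Endothelial and mural cell markers summed to 396 to 599 CPM in control mice and 655 to 1004 CPM in mutant mice, with 4 of 14 genes higher and 0 lower, and skeletal muscle markers to 63.0 to 78.8 CPM and 199 to 868 CPM, with 15 of 21 tested genes higher. Of the 28 muscle genes, Tnnc2 was at 0 counts in every library. The part of these cells in the results for Kcnj8, Kcnj12, Kcnn4 and Kcnmb1 was not tested.

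Kcnj10, which encodes the glial channel Kir4.1 and is the most abundant inward rectifier per length, was not called. It was at 96.9, 92.1 and 138 CPM in control mice and 162, 196 and 75.3 in mutant mice. Mutant mouse 3 lay below every control mouse and the others above. Its log2 fold change was 0.41 (SE 0.31, adjusted p = 0.388). Kcnj16, the partner of Kcnj10, chosen after its values were seen, was at 41.8, 39.3 and 42.5 CPM in control mice and 63.8, 59.7 and 25.0 in mutant mice, a log2 fold change of 0.26 (SE 0.29, adjusted p = 0.556). The astrocyte genes Gfap (284, 227 and 489 CPM in control mice and 537, 554 and 189 in mutant mice) and Aqp4 (269, 223 and 438 CPM and 507, 531 and 257 CPM) were likewise highest in mutant mice 1 and 2. The order of the 6 libraries was identical for Kcnj10 and Gfap. Olig2, of the oligodendrocyte lineage, was also highest in mutant mice 1 and 2 (38.4, 33.4 and 66.1 CPM and 81.7, 81.9 and 49.6 CPM). The astrocyte gene Slc1a3 did not share this pattern (559.7, 489.7 and 398.6 CPM and 600.4, 495.5 and 378.3 CPM). Over the 6 fits that each left out a mouse, the log2 fold change of Kcnj10 ran from 0.12 to 0.72 and that of Kcnj16 from 0.04 to 0.58. Both passed only without mutant mouse 3, the one that lay below the controls (adjusted p = 0.0323 and 0.0139), and in the other 5 fits the adjusted p reached 0.825 and 0.950. The part of astrocytes or of other glia in these values was not tested.

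Levels per length, in CPM per kb averaged over the 6 libraries, were highest for Hcn2 (49.1), Kcnd2 (36.1), Kcnc4 (35.7), Kcne1l (24.1) and Kcnj10 (23.4). Kcnk9 followed at 20.6, Kcnab2 at 20.3 and Hcn3 at 20.0. Hcn2 was highest in each genotype (54.9 CPM per kb in control mice and 43.2 in mutant mice), but the order below it differed. Kcnd2 (40.4) stood above Kcnc4 (37.2) in control mice and below it in mutant mice (31.8 and 34.2). Kcnj10 (20.1) stood below Kcne1l (25.5), Kcnip1 (23.0) and Kcnk9 (22.6) in control mice, and at 26.7 it stood above Kcnab2 (23.2) and Kcne1l (22.6) in mutant mice. These are means, and the order did not hold in every mouse. In mutant mouse 3, Kcnj10 was at 13.9, below Kcnab2 (23.2) and Kcne1l (21.7). The leading genes of other subfamilies included Kcnip1 (19.5), Kcnh2 (17.7), Kcna6 (15.4), Kcnt1 (13.7) and Kcnma1 (8.36). Further down came Kcns2 (4.75), Kcnn2 (4.53), Kcnmb4 (3.31), Kcnf1 (2.70), Kcng2 (2.47) and Kcnv1 (1.77). Summed by subfamily, Kv4 genes were at 51.6 to 55.5 CPM per kb in control mice and 45.9 to 47.8 in mutant mice, and the small-conductance channels with Kcnn4 at 10.6 to 10.8 and 12.6 to 13.9, both without overlap. BK genes were at 9.97 to 10.4 and 8.27 to 9.32 CPM per kb, mostly from Kcnma1, and within Kv4 Kcnd2 fell while Kcnd1 rose. The sums for inward rectifiers, 42.9 to 53.2 and 40.7 to 71.6 CPM per kb, overlapped.

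**Figure D4:**
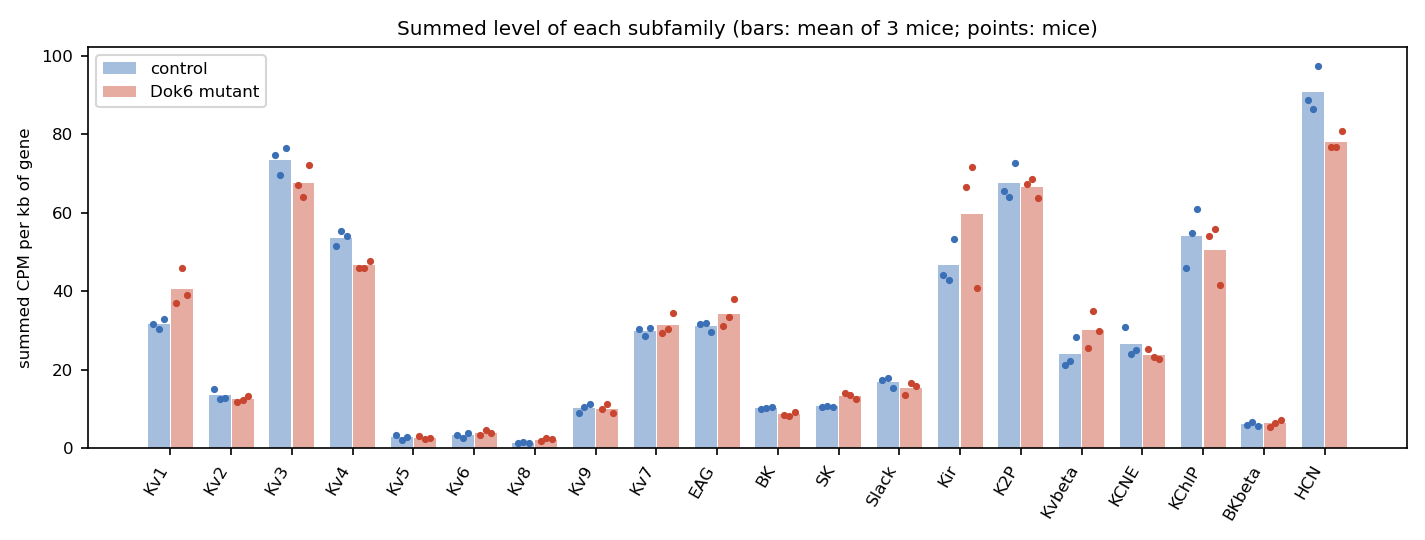
Summed level of each subfamily in CPM per kb of gene length (vertical axis from 0, linear), with bars for the mean of 3 control (blue) or 3 Dok6 mutant (red) mice and a point for each mouse. HCN, Kv4 and BK sums are lower and Kv1, Kv8 and SK sums higher in all 3 mutant mice, and the Kir sums overlap. Kcnv1 makes up nearly all of the Kv8 sum and Kcnma1 most of the BK sum, and Hcn2 and Kcnd2 lead the HCN and Kv4 sums.

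The 14 genes that were not tested had at most 25 counts in any library: Kcna7, Kcna10, Kcne1, Kcne2, Kcne3, Kcnj1, Kcnj4, Kcnj13, Kcnj15, Kcnk7, Kcnk15, Kcnk16, Kcnmb3 and Kcnv2. Kcnj15, an inward rectifier of epithelia, was the only one at 3 counts or fewer in each control library and above 3 in each mutant library, at 1, 1 and 0 counts against 13, 9 and 6. Its mean in the mutants was at least 2.88-fold higher than the 3-count floor of a control library. Gm49643 overlaps an exon of Kcnj15 and has a near-identical transcript, so that its count is uncertain. Such near-identical transcripts exist for 14 of the 97 genes and for none of the 15 that passed the test. Among the genes named above, Hcn3, Kcna6, Kcnj13, Kcnj14, Kcnj15, Kcnk2, Kcnk4, Kcnma1, Kcnmb4 and Kcnn2 have one, and exons of Kcnab2, Kcne3, Kcng2, Avil, P2rx3, Slc32a1 and Tnnc2 overlap those of another gene, so the counts of these genes are uncertain in the same way.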

How the data were processed

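The deposited table gives, for 6 sciatic nerve libraries, whole-number read counts per gene that the authors left unnormalized, with a gene length. The submitters' processing notes name mm10. The aligner, the counting tool and the use of strand are not given in the sources used here. The labels name the NEBNext Ultra RNA kit and the study's methods its directional version. Every column was matched to a sample by genotype and number.

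Genes were kept by filterByExpr of edgeR 4.0.16 in R 4.3.3 (17099 of 54532 genes), libraries were scaled by TMM over full column sums, and 1 quasi-likelihood fit over all 6 libraries (glmQLFit, glmQLFTest) compared the genotypes, with p-values adjusted by the Benjamini-Hochberg method at 0.05. A log2 fold change above 2 was also asked for in the study's methods. The procedure was tested on simulated data. Standard errors were derived from the F statistic. The floor was 3 counts. The alternatives were DESeq2 1.42.0, limma voom (limma 3.58.1), scaling by RLE or by upper quartiles, dropping the filter, a minimum of 10 counts in every library, the replicate number as a block and leaving out each mouse. Levels per length are CPM divided by gene length in kb.

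The members and lists were chosen with earlier results of these data known. Genes named are those past a log2 fold change of 2, the 12 highest and the 12 lowest that passed, the most abundant member per length of each subfamily, a fixed list of members known from nerve, sensory neurons, glia or vessels, untested members at the floor in all control libraries and above it in all mutant ones, Dok6, and partner genes that passed; others are said to be chosen later or listed only in counts. Positions come from GENCODE M21, and a BLAST 2.17.0 match of at least 95% identity over 200 bases or more counted as a near-identical transcript. A few genes and sequences are not reported here by name, though they stay in the counts, medians and sums.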

Additional observations from a re-analysis of the deposited data

How the results depend on the processing

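DESeq2 (12 higher, 5 lower), limma voom (10 and 4), RLE and upper-quartile scaling (11 and 4 each), no filter (16 and 4) and at least 10 counts in every library (10 and 4) each kept at least 13 of the 15 channel genes past an adjusted p of 0.05, beside 11 higher and 4 lower as reported. Over these alternatives, 6.08% (no filter) to 10.6% (DESeq2) of all genes were higher and 3.66% to 8.80% lower. DESeq2 added 4 genes and dropping the filter added 6. Leaving out a mouse moved the count of higher genes to between 0 and 8 and of lower genes to between 0 and 5. The count above a log2 fold change of 2 was 2 without the filter, 0 with at least 10 counts in every library, because Kcnk18 then could not be tested, between 0 and 2 without a mouse, and 4 at a threshold of 1. With the replicate number as a block, 1 gene was higher (Kcnd1) and 0 were lower, beside 2.53% and 0.760% of all genes, and 0 were above 2. The same-numbered mice did not deviate together (correlations of -0.01, -0.19 and -0.27), so the numbers are not taken as pairs. All 15 genes kept their direction in every alternative that could be fitted, and Dok6 kept its direction and its call in all of them. At these depths, control levels of at most 7 counts, those of Kcnmb1 and Kcnk18, limit how well the size of a fold change is known.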
